A study of Drosophila melanogaster with 3 samples.

Results

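The cytosolic translation factor genes of Drosophila melanogaster were followed in larval salivary glands at the L3 stage, the third instar. The rule that picks the genes uses their names and no measured value. They are the protein-coding genes whose BDGP6 symbol starts with eIF, eEF or eRF and a digit, 53 of the 17278 genes listed (44 initiation, 7 elongation and 2 release factors). RNA was taken from 3 samples of one kind, labelled as controls with no treatment named, each a pool of 50 glands from larvae kept at 25 °C. The sample titles speak of an Oregon wild-type stock, whereas the genotype field gives yw, so the strain is not settled by the labels. No label says whether the 3 samples are separate cultures, so every SD and p below covers only the spread between these libraries, which may be technical.

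Translation starts when eIF2 brings the initiator tRNA to the small ribosomal subunit, while the cap-binding eIF4 factors and the large eIF3 scaffold bring in the mRNA. Elongation factors then deliver each charged tRNA (eEF1) and move the ribosome along (eEF2), and release factors end the chain at a stop codon. Late in larval life the salivary gland is a large secretory organ that makes glue protein in bulk, and it is known for its giant polytene chromosomes.

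Levels are FPKM, fragments scaled to gene length and to library depth, so genes may be compared per length. Whole fragments could be recovered for all 53 genes. The libraries held 678714, 874004 and 1185541 fragments outside rRNA pseudogenes in replicates 1, 2 and 3, and rRNA pseudogenes took 24.6% to 55.0% of all fragments. Gland markers were abundant, with Sgs7 at 311039 ± 52891 FPKM (SD, n = 3). Markers of fat body, a tissue that lies against the gland, were detected for 6 of 6 genes, with a summed level of 2882, 4100 and 4273 FPKM in replicates 1, 2 and 3. Hemocyte, muscle, testis and imaginal disc markers summed to between 0.669 and 12.8 FPKM in each library, and 3 of the 7 testis markers were listed at 0. The part of fat body RNA in the factor levels was not tested, and in pooled tissue fewer cells of a type and less RNA per cell cannot be told apart.

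Most translation factor genes were strongly represented in the gland. At 1 FPKM or more in every library, 41 of the 53 genes counted as detected (77.4%), against 40.1% of all protein-coding genes. A mean of at least 100 FPKM was reached by 24 of the 53, against 3.46% of protein-coding genes. The median factor stood at 75.1 FPKM, against 0.847 FPKM for the median protein-coding gene and 1574 FPKM for the median of 91 ribosomal protein genes. Of the fragments outside rRNA pseudogenes, the factors together held 3.17%, 3.68% and 2.87% in replicates 1, 2 and 3, and ribosomal protein genes 9.94%, 11.4% and 10.2%. The 95% Wilson bounds of the factors' shares were 3.13% and 3.21%, 3.64% and 3.72%, and 2.84% and 2.90%, and they cover counting error only, as do all intervals here.

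Elongation factors lay far above initiation factors. The median level of the 7 elongation genes was 10.7, 10.9 and 10.6 on the log2(FPKM + 1) scale in replicates 1, 2 and 3, against 5.58, 5.31 and 6.17 for the 44 initiation genes. The difference of medians was 5.05 ± 0.62 on that scale (SD, n = 3), more than the spread between libraries, and 4.01 when genes with a mean under 1 FPKM were left out. The median elongation gene lay beside the median ribosomal protein gene, with a difference of medians of 0.11 ± 0.19. The same difference was -4.95 ± 0.46 for initiation genes and -4.40 ± 0.25 for all 53 factors. Of the fragments in factor genes, elongation genes took 75.6% ± 1.94 and initiation genes 23.0% ± 1.57 (SD, n = 3).

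**Figure D1:**
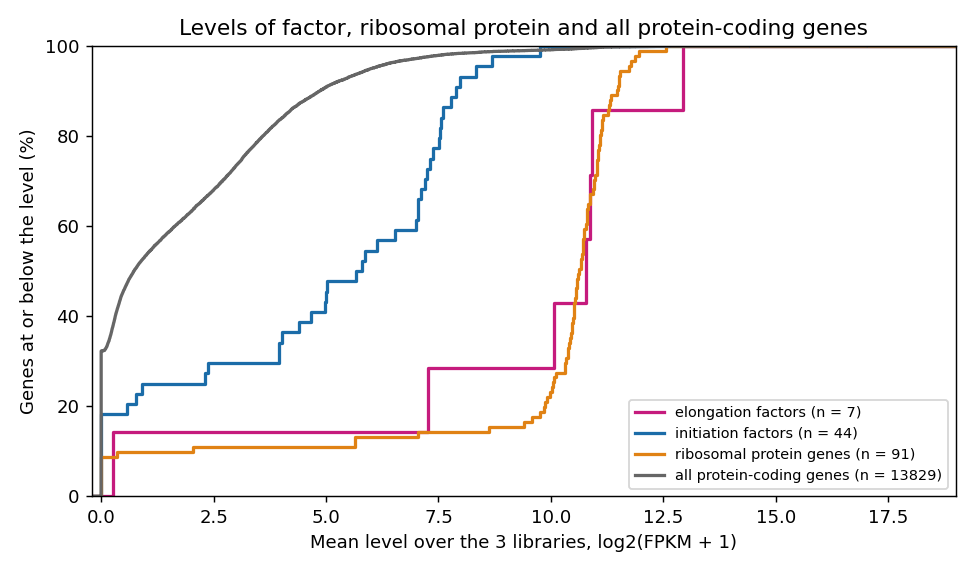
Cumulative share of genes (vertical axis, percent) at or below each mean level over the 3 libraries (horizontal axis, log2(FPKM + 1)) for 7 elongation factors, 44 initiation factors, 91 ribosomal protein genes and 13829 protein-coding genes. Most of the elongation curve climbs at the high levels of the ribosomal protein curve, but eEF1alpha2 lies at 0.27 and eEF1delta at 7.26. The initiation curve climbs at lower levels, and the curve of all protein-coding genes climbs first, near 0.

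eEF1alpha1 encodes the GTPase that carries charged tRNA to the ribosome (FBgn0284245, BDGP6 2R 11891135 to 11895762). It had 8646, 8848 and 6374 FPKM in replicates 1, 2 and 3, a mean of 7956 ± 1374 (SD, n = 3), and ranked 9 among protein-coding genes by mean level. Replicate 3 was the lowest, and all 3 libraries lay above every other factor gene. This gene alone took 47.5% ± 3.32 of the fragments in factor genes.

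Next came eEF5, known elsewhere as eIF5A, which carries hypusine and helps the ribosome past difficult residues such as proline runs. It had 1666, 1976 and 2158 FPKM. eEF2, the translocase (FBgn0000559, 2L 21677913 to 21682164), had 2067, 2007 and 1615 FPKM, so the 2 genes had overlapping ranges. eEF1alpha1 exceeded eEF2 by 4.18 ± 0.231 times within a library (SD, n = 3).

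The exchange factor of eEF1alpha is built from eEF1beta, eEF1delta and the scaffold eEF1gamma. eEF1gamma had 1780, 1964 and 1526 FPKM and eEF1beta 969, 1074 and 1171 FPKM. eEF1delta (FBgn0032198, 2L 10232507 to 10234450) was lower, with 103, 100.7 and 340 FPKM on 48, 68 and 298 fragments, and stood apart in replicate 3. eEF1delta was 0.164 ± 0.110 of eEF1beta (SD, n = 3). The highest of the 4 main eEF1 genes was 43.9 times the lowest by mean, and 85.7 times without replicate 3.

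**Figure D2:**
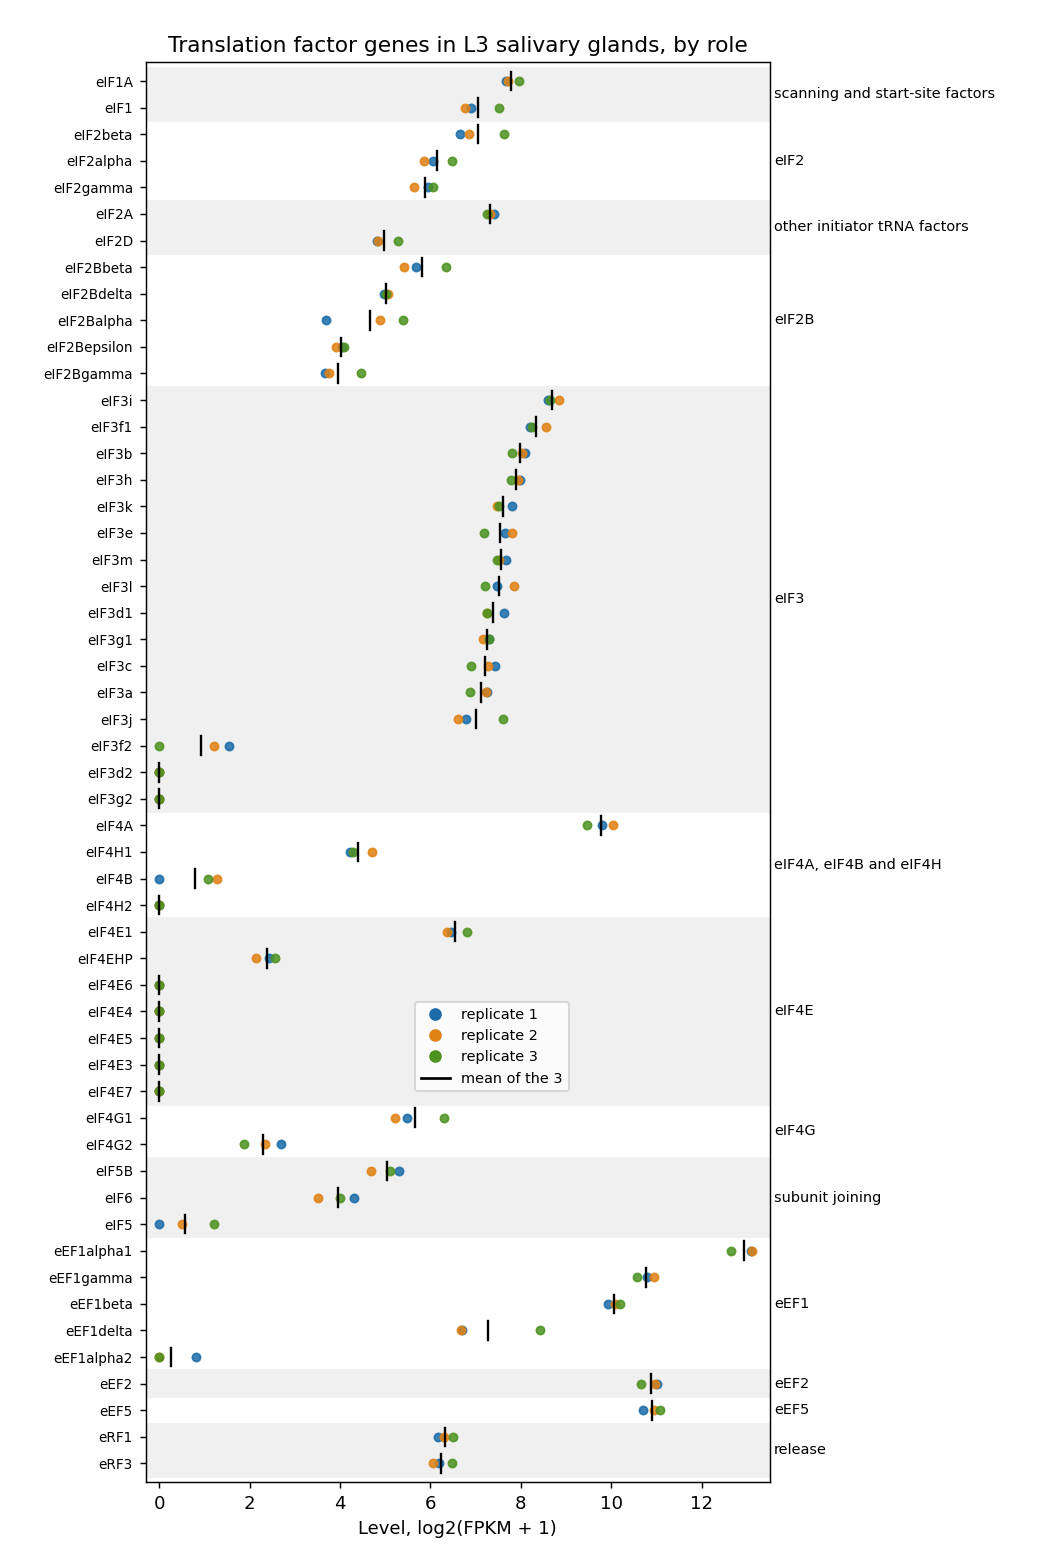
Level of each of the 53 genes, log2(FPKM + 1) on the horizontal axis, grouped by role, with 1 point per library and a bar at the mean of the 3. eEF1alpha1 lies farthest right, the 13 main eIF3 subunits form a narrow column, and 8 genes lie at 0 in every library.

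Among initiation factors, the subunits of eIF3, the scaffold that holds the small subunit, mRNA and other factors together, formed a close group. Its 13 main subunits, all detected, had means from 133 to 415 FPKM with a median of 187, so the highest was 3.12 times the lowest. eIF3i had 389, 456 and 400 FPKM and was the highest in every library. eIF3f1 followed with 295, 376 and 302 FPKM. eIF3a, on which the complex is built, had 152, 149 and 117 FPKM. eIF3j, a loosely attached subunit, had 110, 96.8 and 192 FPKM, the lowest by mean but the fifth highest in replicate 3. The other 9 main subunits, eIF3b, eIF3c, eIF3d1, eIF3e, eIF3g1, eIF3h, eIF3k, eIF3l and eIF3m, had means from 147 to 252 FPKM. Of the exon bases of eIF3h, 16.8% lie in senju on the opposite strand. The spread between libraries was an SD under 0.35 on the log2(FPKM + 1) scale for 12 of the 13 subunits, and 0.52 for eIF3j.

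eIF2, the carrier of the initiator tRNA, was lower. eIF2beta had 99.3, 114.6 and 198 FPKM. eIF2alpha, whose phosphorylation by stress kinases slows initiation, had 65.8, 57.0 and 88.4 FPKM. eIF2gamma, the GTP-binding subunit (FBgn0263740, 3R 15257844 to 15263458), had 60.8, 48.7 and 65.3 FPKM. All 3 eIF2 genes were highest in replicate 3, and 12.6% of the exon bases of eIF2alpha lie in rngo on the opposite strand. By mean, the highest eIF2 subunit was 2.36 times the lowest. The median eIF3 subunit exceeded the median eIF2 subunit by 2.72 ± 0.644 times within a library (SD, n = 3).

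eIF2gamma shares exons with Su(var)3-9, the H3K9 methyltransferase gene named in the study's title. Of the exon bases of eIF2gamma, 16.0% lie in Su(var)3-9 on the same strand, so fragments there cannot be told apart. Su(var)3-9 itself had 0, 0.576 and 3.55 FPKM, far below eIF2gamma in all 3 libraries.

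eIF2B, the exchange factor that reloads eIF2 with GTP, was the least abundant of the multi-subunit factors. Its 5 genes had means from 15.1 to 57.3 FPKM with a median of 27.2. eIF2Bbeta had 50.1, 41.5 and 80.3 FPKM. eIF2Bgamma had 11.6, 12.4 and 21.2 FPKM, from 54 fragments in all. The catalytic subunit gene eIF2Bepsilon had 15.5, 14.04 and 16.0 FPKM, and eIF2Bdelta 30.4, 32.2 and 31.1 FPKM. Their SDs on the log2(FPKM + 1) scale, 0.09 and 0.04, lay below the 0.29 and 0.21 that counting error alone would give. A steady level is therefore not shown at this depth. eIF2Balpha had 11.9, 28.7 and 41.0 FPKM on 6, 21 and 39 fragments. The median eIF2 subunit exceeded the median eIF2B subunit by 3.02 ± 1.14 times (SD, n = 3).

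The factors that act at the cap differed widely. eIF4A, the RNA helicase (FBgn0001942, 2L 5981764 to 5985909), had 893, 1053 and 699 FPKM and was the only initiation gene above 500 FPKM on average. eIF4E1, which binds the cap, had 86.8, 81.2 and 112 FPKM. eIF4G1, the scaffold that joins them (FBgn0023213, chromosome 4, 915297 to 930715), had 43.9, 36.0 and 77.6 FPKM. eIF4A exceeded eIF4E1 by 9.84 ± 3.37 times, and eIF4E1 exceeded eIF4G1 by 1.89 ± 0.415 times (SD, n = 3), in that order in all 3 libraries. eIF4H1, a helper of the helicase, had 17.6, 25.1 and 18.6 FPKM.

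eIF4B, the other known helper of eIF4A, was near 0, at 0, 1.43 and 1.10 FPKM on 4 fragments in all. It shares no exon base with another annotated gene (FBgn0020660, 3L 27842669 to 27858271).

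Start-site and subunit-joining factors were spread over the same range. eIF1A and eIF1, which keep the scanning ribosome from starting at a wrong codon, had 204, 210 and 247 FPKM and 118, 107 and 182 FPKM. eIF2A had 168, 159 and 150 FPKM, and eIF2D, which acts on ribosomes after termination, 27.2, 27.6 and 37.9 FPKM. The subunit-joining GTPase gene eIF5B had 38.6, 24.6 and 33.6 FPKM. eIF6, which keeps free large subunits apart, had 18.9, 10.4 and 15.0 FPKM on 33 fragments.

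eIF5, which triggers GTP hydrolysis by eIF2 (FBgn0030719, X 15987008 to 15991974), had 0, 0.429 and 1.32 FPKM on 5 fragments. Of its exon bases, 80.8% lie on the same strand in CG46312, a gene with all of its exon bases inside eIF5 and itself listed at 0. Among protein-coding genes with over 50% of their exon bases shared on the same strand, 87.3% were listed at 0, against 35.5% of genes that share none. Outside the shared part lie 615 exon bases of eIF5, and the whole gene had 5 fragments. The part of the overlap in this value was not tested. The eIF5 level is uncertain and is not read as low expression. No such overlap was annotated at eIF4B, and the cause of its low value was not tested either.

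The 2 release factors had overlapping levels. eRF1, which reads the stop codon, had 70.7, 77.3 and 89.7 FPKM, and its partner GTPase eRF3 had 72.1, 65.2 and 88.0 FPKM. eRF1 over eRF3 was 1.06 ± 0.110 (SD, n = 3), and their ranges overlapped. Both lay near the median factor, 0.59 ± 0.27 above the median initiation gene on the log2(FPKM + 1) scale. In all, 13 ratios between single genes were computed, chosen after the values were seen, 4.18 for eEF1alpha1 over eEF2 among them. Exact permutation of signs over the 3 libraries (two-sided) gave at best p = 0.25 (0.325 after Benjamini-Hochberg adjustment over the 13), the smallest it can give, and p = 0.75 for eRF1 over eRF3, 1 for eEF5 over eEF2 and 0.5 for NAT1 over eIF4G1.

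Where a factor exists in more than 1 gene copy, the widely used copy was the higher one in the gland. Of 12 paralogs, 8 were listed at 0 in every library: eIF3d2, eIF3g2, eIF4E3, eIF4E4, eIF4E5, eIF4E6, eIF4E7 and eIF4H2. Among all protein-coding genes the share listed at 0 was 32.3%, below that of the 8 of 12 paralogs. Over all 53 factors that share was 15.1%. All 12 paralogs were lower than their widely used copy in 3 of 3 libraries. The 8 listed at 0 could not be higher, and several pairs share eIF4E1, so the 12 are not separate observations. An exact permutation of signs, two-sided, gave p = 0.25 for each pair, the smallest that 3 libraries allow, and 0.25 after Benjamini-Hochberg adjustment over the 12 pairs, so no pair could pass.

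The cap-binding family has the most paralogs. eIF4E3, eIF4E4, eIF4E5, eIF4E6 and eIF4E7 had no fragment, against 465 in eIF4E1. With 3 fragments over all libraries as the limit that a count of 0 allows, eIF4E7 was at least 114-fold lower than eIF4E1, eIF4E3 at least 72.1-fold lower and the short gene eIF4E6 at least 47.6-fold lower. eIF4E3 is known for its role in the testis. eIF4EHP, a cap-binding repressor that does not join eIF4G, was the one relative with signal in every library. Of its exon bases, 6.96% are shared with Syx1A on the same strand. eIF4EHP had 4.36, 3.43 and 4.94 FPKM on 14, 16 and 30 fragments, against 86.8, 81.2 and 112 FPKM in eIF4E1. By pooled fragments it was 22.3-fold lower (95% exact interval 17.0 to 29.6), with a mean difference of -4.16 ± 0.11 on the log2(FPKM + 1) scale.

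eIF4G2, known from spermatocytes, had 5.50, 4.08 and 2.67 FPKM, against 43.9, 36.0 and 77.6 FPKM in eIF4G1. It was 14.7-fold lower by pooled fragments (11.6 to 18.9). Its values did not overlap those of eIF4G1, and replicate 3 showed the widest gap, -4.42 against -2.79 and -2.87 on the log2 scale in replicates 1 and 2. In this gene 8.56% of exon bases are shared with CG33111 on the same strand.

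eEF1alpha2, the second eEF1alpha gene, had 0.753, 0 and 0 FPKM from a single fragment, against 41359 fragments in eEF1alpha1. The ratio of eEF1alpha2 to eEF1alpha1 per exon base was 2.24e-05 (95% exact interval 5.68e-07 to 0.000125). eIF3f2 had 1.91, 1.31 and 0 FPKM on 2 fragments, against 920 fragments in eIF3f1, a ratio of 0.0027 (0.000326 to 0.00978). eIF3d2 was at least 261-fold lower than eIF3d1, eIF3g2 at least 107-fold lower than eIF3g1 and eIF4H2 at least 28.4-fold lower than eIF4H1. Of the widely used copies, eIF3d1 had 196, 151 and 151 FPKM on 706 fragments and eIF3g1 had 156, 143 and 155 FPKM on 338, while eIF4H1 rested on 198 fragments.

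**Figure D3:**
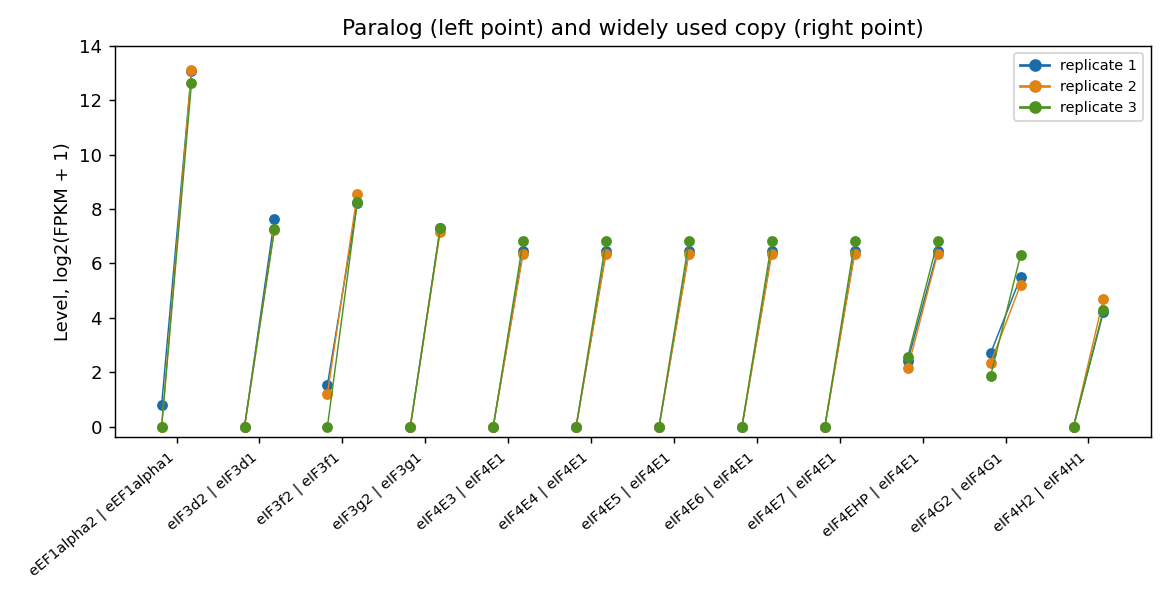
Levels, log2(FPKM + 1), of each paralog (left point) and its widely used copy (right point) for 12 pairs, joined within each of the 3 libraries. Every line climbs to the right, and eIF4EHP and eIF4G2 are the paralogs with signal in all libraries.

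Genes that act on or beside the factors were followed as 5 lists. Among 11 partners of the cap and tail, 10 were detected. Thor, the 4E-BP that blocks eIF4E from binding eIF4G, was the highest, with 1386, 1526 and 612 FPKM. It exceeded eIF4E1 by 16.0, 18.8 and 5.48 times in replicates 1, 2 and 3, with replicate 3 lowest. pAbp, which binds the poly(A) tail, had 855, 535 and 772 FPKM. NAT1, an eIF4G relative that lacks the eIF4E binding site, had 116, 138 and 44.1 FPKM. It lay above eIF4G1 in replicates 1 and 2 and below it in replicate 3. The upstream kinases mTor and S6k had 6.45 ± 0.38 and 5.85 ± 0.438 FPKM (SD, n = 3), and cup, listed at 0, shares all of its exon bases with CG34310.

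Of the 4 genes that act through eIF2 phosphorylation, 3 were detected. The kinase gene PEK had 6.98, 7.90 and 6.73 FPKM, the kinase gene Gcn2 1.39, 0.957 and 0.921 FPKM, and PPP1R15, a subunit of the eIF2alpha phosphatase, 33.8, 37.9 and 23.8 FPKM. crc, the ATF4 gene, was the highest with 39.7, 34.5 and 66.4 FPKM, and 73.5% of its exon bases are shared with CG46314.

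All 6 recycling and rescue genes were detected. Rack1, a protein of the small subunit, had 1472, 1570 and 1191 FPKM. pix, the ABCE1 factor that splits ribosomes after termination, had 568, 594 and 435 FPKM, 6.86 ± 1.75 times eRF1 (SD, n = 3). pelo, which rescues stalled ribosomes, was the lowest with 3.91, 6.72 and 16.5 FPKM.

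The enzymes that modify eEF5 and eEF2 were low beside their substrates. nero, which completes hypusine on eEF5, had 8.98, 8.64 and 9.49 FPKM. The 3 diphthamide genes, whose products modify eEF2, ranged from 2.59 ± 1.17 FPKM for Dph2 to 11.7 ± 6.36 for Dph1 (SD, n = 3). Of 8 mitochondrial factor genes, 6 were detected. Means over the 8 ran from 0.718 ± 0.705 FPKM for the release factor gene mRF1, which was not detected, to 13.4 ± 8.01 for the elongation factor gene mEFTu1 (SD, n = 3).

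Few factor genes spread widely between libraries. Among the 42 with a mean of at least 1 FPKM, 6 had an SD above 0.5 on the log2(FPKM + 1) scale (14.3%), against 42.7% of protein-coding genes at that level. At a mean of at least 10 FPKM the count was 5 of 39 (12.8%), against 33.5%. At 100 FPKM it was 3 of 24 (12.5%), against 26.9%. The 5 were eEF1delta (SD 0.996), eIF2Balpha (0.87), eIF4G1 (0.56), eIF3j (0.52) and eIF2beta (0.52). Counting error alone would give SDs of 0.16, 0.41, 0.10, 0.14 and 0.15 for these genes. Over all 53 genes the count was 8, the rest being eIF3f2, eIF4B and eIF5 with 5 or fewer fragments each, and 4 without replicate 3. No share of all protein-coding genes is given beside those counts over 53 genes, and they are not read as a result about the factors.

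Of these 5, eIF2Balpha was low in replicate 1, on 6 fragments, and the other 4 were high in replicate 3. The comparison of replicate 3 with the other libraries was chosen after the values were seen. Of 39 genes with a mean of at least 10 FPKM, 7 had at least 1.5 times the level of both other libraries in replicate 3 (17.9%), against 15.2% of protein-coding genes, a share near the background. They were eEF1delta, eIF4G1, eIF3j, eIF2beta, eIF2Bbeta, eIF2Bgamma and eIF1. Lower by that factor were 0 of the 39, against 14.8% of protein-coding genes. Replicate 3 was the highest library for 18 of the 39, against 43.1% of protein-coding genes, and the lowest for 12, against 35.5%.

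By fragments, replicate 3 over the other libraries was 3.33 for eEF1delta (95% exact interval 2.68 to 4.17), 1.98 for eIF4G1 (1.71 to 2.29) and 1.88 for eIF3j (1.54 to 2.30). At the other end it was 0.680 for eIF3e (0.572 to 0.807), 0.708 for eIF4A (0.666 to 0.752) and 0.727 for eEF1alpha1 (0.713 to 0.742). The interval lay above 1 for 14 of the 39 genes, against 25.6% of protein-coding genes, and below 1 for 9 of the 39, against 24.3%. These shares are not alike, since intervals narrow with more fragments. A mean of at least 100 FPKM was reached by 24 of the 39 factors, against 479 of the 3092 protein-coding genes. Of the 8 eIF2 and eIF2B subunits, 7 were highest in replicate 3, and 7 of the 13 main eIF3 subunits were lowest there. Over protein-coding genes with a mean of at least 10 FPKM, replicate 3 was highest for 43.1% and lowest for 35.5%. Among the subunits so counted, the interval included 1 for eIF2gamma, eIF2Bgamma and eIF2Bepsilon, and for eIF3h and eIF3m. eEF1alpha1, eEF1gamma, eEF2 and eIF4A were also lowest in replicate 3. Of the 33 genes in the 5 lists of partners and modifiers, 12 were lowest in replicate 3, Thor, NAT1, pix and Rack1 among them. Highest in replicate 3 were 11, among them Lk6 and pelo. These counts stand beside the same shares of 35.5% and 43.1% and are not read as a result about the lists. Many of the 33 lay under 10 FPKM, and such genes are left out of those shares. Relative to each gene's own mean, the median eIF2B gene stood at -0.13, -0.10 and 0.51 on the log2(FPKM + 1) scale in replicates 1, 2 and 3, and the median eIF3 gene at 0.10, 0.06 and -0.12. The eIF2B median rests on 5 genes that differed. The interval of replicate 3 over the other libraries lay above 1 only for eIF2Balpha and eIF2Bbeta among them, so a shift of the whole complex is not shown. The median ribosomal protein gene stood at 0.02, 0.01 and -0.01. These values compare libraries of 1 group. In the same libraries the fat body markers summed to 2882, 4100 and 4273 FPKM, but they did not move together. Of the 6, 3 were highest and 1 lowest in replicate 3, with Lsp1alpha at 270, 298 and 979 FPKM and Fbp1 at 1037, 1468 and 272 FPKM. The rRNA pseudogenes took 55.0%, 41.4% and 24.6% of fragments. The part of either in these differences was not tested.

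**Figure D4:**
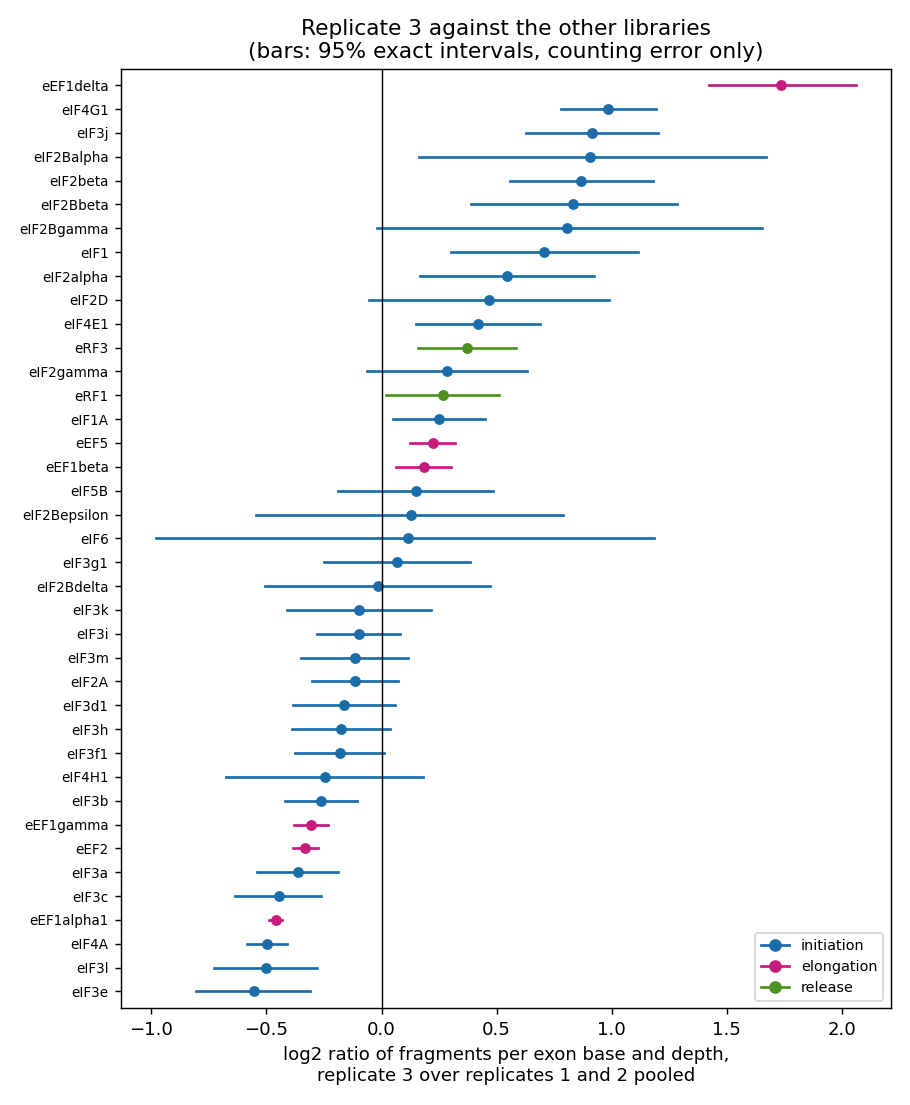
Ratio of replicate 3 to replicates 1 and 2 pooled, on a log2 axis, for 39 genes with a mean of at least 10 FPKM, with 95% exact intervals for counting error. eEF1delta stands apart at the high end, eIF2 and eIF2B genes lie mostly to the right of 0, and eEF1alpha1, eIF4A and several eIF3 genes lie to the left.

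The factor genes are spread over the genome (BDGP6), with 15 on 3R, 12 on 2R, 12 on 3L, 7 on X, 6 on 2L and 1, eIF4G1, on chromosome 4. The only members within 50 kb of each other were eIF2alpha and eIF4H1 on X, 1671 bases apart, whose mean levels were 70.4 and 20.5 FPKM. Detected factors had a median of 4 exon blocks and 1834 exon bases, against 4 and 2122 for all detected protein-coding genes. The 8 paralogs listed at 0 had a median of 2 exon blocks and 1035.5 exon bases, so a given FPKM rests on fewer fragments in them. Over the 41 detected factors, the mean log2 level and exon length had a Spearman correlation of -0.30, a description across genes that share the same libraries.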

How the data were processed

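PolyA RNA of 3 salivary gland samples of 1 control group was sequenced as paired-end libraries. The kit keeps strand, but the deposited table is named as counted without strand, so overlapping and antisense genes cannot be told apart. The authors deposited FPKM values for 17278 genes. Per the submitters' processing notes the tools included HISAT2 and DESeq. Their settings, the genome build, the annotation and the counter were not given in the sources used here.

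Genes were matched by identifier to the BDGP6.54 annotation (17142 matched, 136 not), which gave symbols, positions and exon lengths. Values were used as deposited FPKM and as log2(FPKM + 1). Steps in the low values gave whole fragments for all 53 factor genes (tolerance 0.01) and for 98.7% to 98.8% of values per library. These steps fit a scaling total of 499875, 727436 and 945562 fragments, below the recovered totals outside rRNA pseudogenes, and the authors' denominator is not given. Depth limited low genes, since 1 fragment in a gene of 2000 bases was worth 1.00, 0.687 and 0.529 FPKM. Intervals of shares are Wilson, those of ratios exact binomial, and the limit of a count of 0 is 3 fragments over the 3 libraries.

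With 1 group, no condition was compared. Gene pairs were compared within libraries by exact sign-flip permutation. Values in every library are given for the highest and lowest gene of each role, both genes of each pair and genes with a mean of at least 10 FPKM that spread between libraries, with others by mean or range. The naming rule uses no measured value, but this gene family and the lists were chosen with earlier results of these data known. DHPS and mEFG2 were not matched by symbol and were not used. Alternatives were other pseudocounts, detection limits, scalings and filters, and leaving out each library. Scripts used Python 3.11.15, numpy 2.4.6, pandas 2.3.3 and scipy 1.17.1, and were tested on simulated data.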

Additional observations from a re-analysis of the deposited data

How the results depend on the processing

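The settings could not turn the sign of the 12 paralog differences, since each acts alike on both genes of a pair and every paralog was lower in each library. Scaled to an equal sum per library (TPM), the median factor level moved from 6.24 to 5.22 (5.79 with rRNA pseudogenes left out), the number of genes with an SD above 0.5 from 8 to 13, and the range of the median deviation over libraries from 0 to 0.52 (0.0937 with them left out). That 0 is a median over 53 genes with 8 fixed at 0, and the range was 0.10 for the 39 genes with a mean of at least 10 FPKM. The TPM scaling itself moved the median protein-coding gene by -1.21, -0.79 and -0.66 on the log2 scale in replicates 1, 2 and 3. It gave 11 of 39 genes at least 1.5 times higher in replicate 3 (28.2%), against 31.3% of protein-coding genes. With a mean of at least 1 FPKM required, the median level was 7.09, elongation minus initiation 4.01 and factors minus ribosomal protein genes -3.77, since the genes near 0 were removed. An SD limit of 0.3 gave 18 genes. Leaving out each library gave 4 to 11 genes that spread (4 without replicate 3), a span of 2.94 to 4.08 for eIF3 and of 33.9 to 85.7 for eEF1. For the counts of genes that spread in this section, no share of all protein-coding genes at the same setting is given. Those counts are not read as a result about the factors. Over all settings, 81 summary values were labelled as the same and 12 as moved, by limits not given here. The 81 include the paralog count, which could not turn, and the 11 genes that spread without replicate 2, against 8. No paired analysis was possible because there is 1 group, so no samples can be paired across groups, while the comparisons within libraries pair genes. The promoter motif search was not run, since no promoter sequences were used here. Genes with 5 or fewer fragments, 12 of the 53, cannot be ordered at this depth.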
